A study of Mus musculus with 6 samples.

Results

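The 49 genes described here encode the machinery that brings a cell from G1 into S phase and copies its DNA. They were taken by name, matched through GENCODE mouse release M21 symbols to the Ensembl IDs of the count files, and all 49 were found once among 38087 gene IDs. No rule on expression values was used to take the names, but the set was chosen with earlier results of these data known. The data are gene counts of poly(A)-selected RNA from the HL-1 line, mouse cardiomyocytes of atrial origin that beat and divide in culture. The treated cells received 100 nM of an siRNA against Circ-INSR, a circular transcript made from the insulin receptor gene, and the control cells a scrambled siRNA, with 3 libraries in each. Gene counts of poly(A) RNA do not measure the circular RNA itself, so its loss could not be checked here. The labels give no time after transfection and do not say whether the libraries are separate cultures, so the tests capture the spread between these libraries, which may be technical. HL-1 cells descend from an atrial tumour of a mouse that carried the SV40 large T antigen under the promoter of the atrial natriuretic factor gene. Large T binds the retinoblastoma proteins and p53, and every library of both groups came from cells with this background.

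Before S phase the origin recognition complex, Cdc6 and Cdt1 load the ring of Mcm2 to Mcm7 on DNA as an inactive helicase. Cdc45 and the GINS complex then join the ring to make it active, and polymerases, the sliding clamp, its loader and lagging-strand enzymes follow. Most of these genes are switched on late in G1 by E2F factors, which are held in check by retinoblastoma proteins until cyclin-dependent kinases inactivate those.

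Genes of the replication machinery were mostly higher after Circ-INSR siRNA. Of the 4 genes of cyclins and E2F factors that act upstream of them, Ccne2, E2f1 and, by little, Ccne1 were lower and E2f2 was higher. Of the 49 genes, 27 rose and 8 fell, and 14 did not pass the threshold (quasi-likelihood test of edgeR, with p adjusted over all genes tested after Benjamini and Hochberg and a threshold of 0.05). Among all 16666 genes tested, 28.5% were higher and 28.5% were lower, and 57.0% in all. All 49 genes passed the filter on low counts. The median log2 fold change of Circ-INSR siRNA over control siRNA was 0.18 over the 49 genes and -0.0045 over all genes tested. The 3 libraries of each group did not overlap for 40 of the 49 genes, 30 higher and 10 lower after Circ-INSR siRNA, and for 63.3% of all genes tested, 32.0% higher and 31.3% lower. The changes were small: the largest was 0.70 on the log2 scale, for Nasp, and 0 of the 49 reached 1. Of the 49 genes 13, or 26.5%, passed the threshold and changed by 0.3 or more on that scale, against 39.5% of all genes tested.

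These genes are well expressed, and a well-expressed gene is called more often. Levels are given as CPM, counts per 1000000 with library sizes scaled by trimmed means of M values (TMM). Among the 9624 genes tested whose mean CPM reached that of the lowest of the 49, 67.5% were called, with 37.5% higher and 30.0% lower. The share of the 49 called in either direction, 71.4%, was close to that background. The share higher was 55.1% and the share lower 16.3%. The median log2 fold change of these well-expressed genes was 0.04. Without Circ-INSR siRNA replicate 1 the number of the 49 that were lower was 5, and 25 were higher. In that setting 4209 of all genes were higher and 4198 lower, and 49.6% were called, against 57.0% with every library. Without control siRNA replicate 3, which stood apart from the other controls, 30 of the 49 were higher and 9 lower. There 5150 of all genes were higher and 5064 lower, and 59.8% were called.

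**Figure D1:**
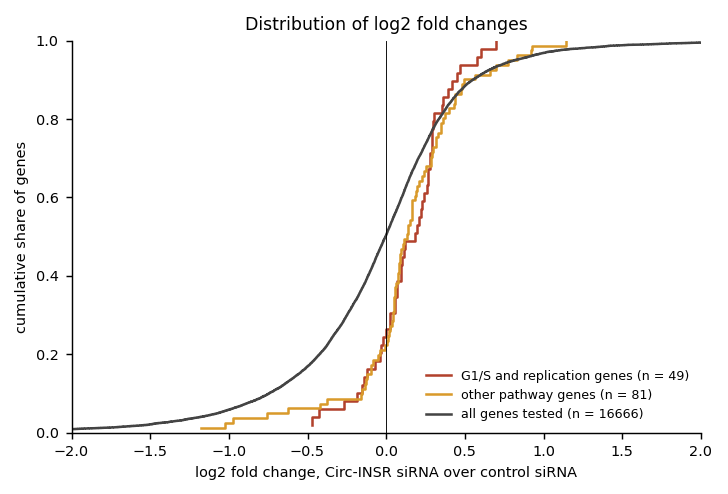
Cumulative share of genes (vertical axis) against the log2 fold change of Circ-INSR siRNA over control siRNA (horizontal axis), for the 49 G1/S and replication genes, 81 other genes of the pathway and all 16666 genes tested. The curve of the 49 genes crosses the middle of the vertical axis at 0.18, right of that of all genes, and ends at 0.70, where the curve of all genes still has a tail.

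Total counts ran between 68468620 and 77037474 in the Circ-INSR siRNA libraries and between 60024750 and 62523602 in the control siRNA libraries. The lowest count of any of the 49 genes in a library was 579. Control siRNA replicate 3 differed from the other controls by a chi-square per gene of 31.5 and 21.9, compared with 7.03 between control replicates 1 and 2, and its longest genes (at least 9219 exonic bases) had a median log2 deviation of -0.13. All 8 listed markers of atrial cardiomyocytes were detected in every library, and they moved both ways: Actc1 and Myh6 rose by 0.87 and 0.50 on the log2 scale, Tnnt2, Myl7 and Gja1 fell by 0.73, 0.19 and 0.15, and Nppa, Ttn and Ryr2 did not pass the threshold. Their summed level was 7550 to 7572 CPM in Circ-INSR siRNA libraries and 6965 to 7849 CPM in control siRNA libraries. Endothelial Cdh5 and Emcn, leukocyte Ptprc and Adgre1 and fibroblast Dcn and Lum were at or near 0 in both groups. Of the 4 fibroblast markers tested, Col3a1 and Col1a2 rose by 0.87 and 1.67, Col1a1 fell by 0.50 and Pdgfra did not pass the threshold, and the list of 6 summed to 132.6 to 149.5 CPM in Circ-INSR siRNA libraries and 171.9 to 189.8 CPM in control siRNA libraries. Of 5 smooth muscle markers 4 rose, with a summed level of 6491 to 6726 CPM in Circ-INSR siRNA libraries and 4055 to 4170 CPM in control siRNA libraries, and 3 of 3 leukocyte markers tested fell, with a sum over the list of 6 of 3.97 to 4.44 CPM in Circ-INSR siRNA libraries and 6.90 to 7.87 CPM in control siRNA libraries. The endothelial receptor gene Kdr also rose, by 1.57 on the log2 scale. Most of the leukocyte sum came from Cd68, with a mean of 3.27 CPM in Circ-INSR siRNA and 5.19 CPM in control siRNA libraries. Among all genes tested, 28.5% were higher and 28.5% were lower. The part of these markers in the results below was not tested. In bulk RNA a larger share of cells in S phase and more RNA per cell of that phase cannot be told apart.

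The promoters were searched for words bound by E2F factors. The words were not used to choose the genes, but most of these genes are known to be switched on by E2F factors. A share above that of all genes therefore says nothing about the siRNA. RefSeq promoter windows of 300 bases on mm10 (250 before and 50 after the transcription start) were given for 41 of the 49 genes, the others being Mcm4, Gins1, Gins2, Gins4, Prim2, Pole, Rfc2 and Ccne2. Both strands were read for the 4 words TTTCCCGC, TTTGGCGC, TTTCGCGC and TTTGCCGC. At least 1 word was present in 16 of the 41 genes (39.0%), in 2.60% of all 27025 genes with a window and in 4.46% of the 11408 genes that were also tested here. Among the other genes of the pathway it was present in 18 of 63 (28.6%). The word was found in 10 of 22 genes that rose, in 3 of 7 that fell and in 3 of 12 that did not pass the threshold, so it occurred in genes of either direction. The 16 genes held 22 matches, among them 2 pairs that overlapped on opposite strands. Of the 22, 14 began between 60 bases before the start and the end of the window. The CCAAT word was in 61.0% of the 41 genes and 42.9% of genes tested, the GGGCGG word in 75.6% and 66.0%, and TTTGAA in 17.1% and 14.4%. A match is a description of the letters and not a measured binding site.

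Stretches of 30 bases around the word are shown for genes that fell, rose or did not pass the threshold, to let the sites be compared. Each is written on the strand where the word begins with TTT, with the word in capitals. Orc1, Gins3 and Rfc3 fell, Cdc6, Mcm3, Mcm7, Pold3 and Pole2 rose, and Mcm6 did not pass the threshold.
Orc1 (chr4:108579416-108579445, minus strand): aggagaaaactTTTCGCGCcactaaccgaa
Gins3 (chr8:95633507-95633536, minus strand): ttcaaactcgcTTTCCCGCgccgcactcgc
Rfc3 (chr5:151651200-151651229, minus strand): acgtcgcacgcTTTCGCGCtcgcgggaaaa
Cdc6 (chr11:98908002-98908031, minus strand): accccaggcgaTTTCCCGCtctccaccggc
Mcm3 (chr1:20820275-20820304, plus strand): acttcccaagtTTTCCCGCcacggaagttt
Mcm7 (chr5:138171849-138171878, minus strand): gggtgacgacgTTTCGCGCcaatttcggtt
Pold3 (chr7:100121467-100121496, minus strand): gagcgaagctgTTTCCCGCcggcgggagct
Pole2 (chr12:69228162-69228191, plus strand): catgttcgcgaTTTGGCGCcaccgccgacg
Mcm6 (chr1:128359734-128359763, minus strand): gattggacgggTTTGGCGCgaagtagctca

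Whole stretches of 250 bases before the start are shown for a gene that fell, a gene that rose and a gene that did not pass the threshold. They are written on the gene's own strand, with E2F words in capitals. That of Orc1 has 1 word close to the start, that of Mcm5 has 2 different words that overlap on opposite strands, and that of Mcm6 has such an overlapping pair and a further word.
Orc1 (chr4:108579204-108579453, plus strand): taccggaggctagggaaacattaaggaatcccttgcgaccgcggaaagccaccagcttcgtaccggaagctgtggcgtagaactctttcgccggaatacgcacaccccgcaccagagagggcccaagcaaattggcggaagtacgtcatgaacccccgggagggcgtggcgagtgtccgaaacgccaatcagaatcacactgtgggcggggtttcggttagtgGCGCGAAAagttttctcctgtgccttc
Mcm5 (chr8:75109259-75109508, plus strand): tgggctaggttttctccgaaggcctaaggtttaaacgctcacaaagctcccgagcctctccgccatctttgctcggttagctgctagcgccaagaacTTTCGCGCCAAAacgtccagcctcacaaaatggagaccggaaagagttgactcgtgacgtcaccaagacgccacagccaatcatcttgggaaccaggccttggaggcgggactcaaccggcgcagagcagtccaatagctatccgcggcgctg
Mcm6 (chr1:128359706-128359955, minus strand): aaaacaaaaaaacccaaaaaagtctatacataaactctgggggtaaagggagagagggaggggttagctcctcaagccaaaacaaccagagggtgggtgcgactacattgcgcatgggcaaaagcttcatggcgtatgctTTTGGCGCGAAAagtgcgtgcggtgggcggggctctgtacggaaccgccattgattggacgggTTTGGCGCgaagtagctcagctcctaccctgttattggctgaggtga

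**Figure D2:**
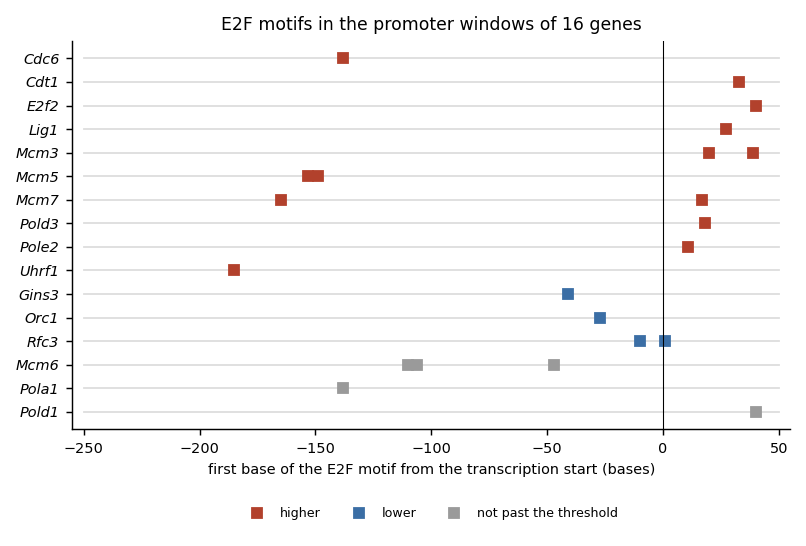
Distance in bases from the transcription start to the first base of each E2F word (horizontal axis) in the promoter windows of the 16 genes that hold one (rows), coloured by whether the gene was higher, lower or not past the threshold after Circ-INSR siRNA. Matches lie between -185 and 40, and those of the 3 lower genes lie between -41 and 1.

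Of 11 genes of origin recognition and licensing 8 rose (72.7%) and 1 fell (9.09%), and their median log2 fold change was 0.28. Of the well-expressed genes 37.5% rose and 30.0% fell. Of the Mcm2 to Mcm7 ring, whose subunits are needed in equal numbers, 5 of 6 rose. Mcm4 (chromosome 16, 15623897 to 15637400, minus strand) had 232.1, 234.0 and 237.2 CPM in Circ-INSR siRNA libraries, against 179.8, 183.1 and 185.4 CPM in control siRNA libraries. Mcm3 (chromosome 1, 20802968 to 20820312, minus strand) had 328.2, 328.8 and 344.0 CPM in Circ-INSR siRNA libraries, against 269.4, 261.4 and 250.8 CPM in control siRNA libraries. The groups did not overlap for either gene, and the log2 fold changes were 0.36 (SE 0.04; edgeR adjusted p = 1.13e-05) for Mcm4 and 0.36 (SE 0.04; edgeR adjusted p = 2.62e-05) for Mcm3. Mcm5, Mcm2 and Mcm7 rose by 0.28, 0.26 and 0.22 on the log2 scale. Mcm6 had a log2 fold change of 0.07 (SE 0.04; edgeR adjusted p = 0.121), although its libraries did not overlap between groups, and passed the threshold without control siRNA replicate 3 (0.09; edgeR adjusted p = 0.0239). Per exonic length Mcm6 had the highest level of the ring in control siRNA libraries, 460.2 ± 6.95 TPM (transcripts per 1000000; SD, n = 3), and Mcm5 the lowest, 96.2 ± 3.56 TPM.

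The loaders of the ring did not all move the same way. Cdc6 (chromosome 11, 98907801 to 98923940, plus strand), the ATPase that brings the ring to the origin, had 52.1, 53.2 and 53.4 CPM in Circ-INSR siRNA libraries, against 43.7, 42.7 and 42.0 CPM in control siRNA libraries. Every Circ-INSR siRNA library was above every control, and the log2 fold change was 0.30 (SE 0.04; edgeR adjusted p = 8.42e-05). Cdt1, its partner, rose by 0.29 (SE 0.04) to 256.2 ± 6.17 CPM in Circ-INSR siRNA libraries, against 209.6 ± 2.31 CPM in control siRNA libraries (SD, n = 3 each). Orc6, a small subunit of the origin recognition complex, rose by 0.28 (SE 0.05). Orc1, the largest subunit of that complex (chromosome 4, 108579423 to 108614833, plus strand), had 17.1, 16.6 and 16.6 CPM in Circ-INSR siRNA libraries, against 23.1, 23.3 and 23.3 CPM in control siRNA libraries. It was lower in all Circ-INSR siRNA libraries with a log2 fold change of -0.47 (SE 0.05; edgeR adjusted p = 1.16e-05). An antisense transcript, Gm12743, covers 10.8% of its exonic bases. Orc2 had a log2 fold change of 0.09 (SE 0.05; edgeR adjusted p = 0.123), or 0.11 and 0.0401 without control siRNA replicate 3, and 29.8% of its exonic bases are shared with Nif3l1 on the other strand. The count of Orc6 over that of Orc1 within a library, which no scaling affects, was 3.07 ± 0.14 in Circ-INSR siRNA libraries and 1.83 ± 0.11 in control siRNA libraries (SD, n = 3 each). This and the other ratios below were chosen after the values were seen and have no test.

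**Figure D3:**
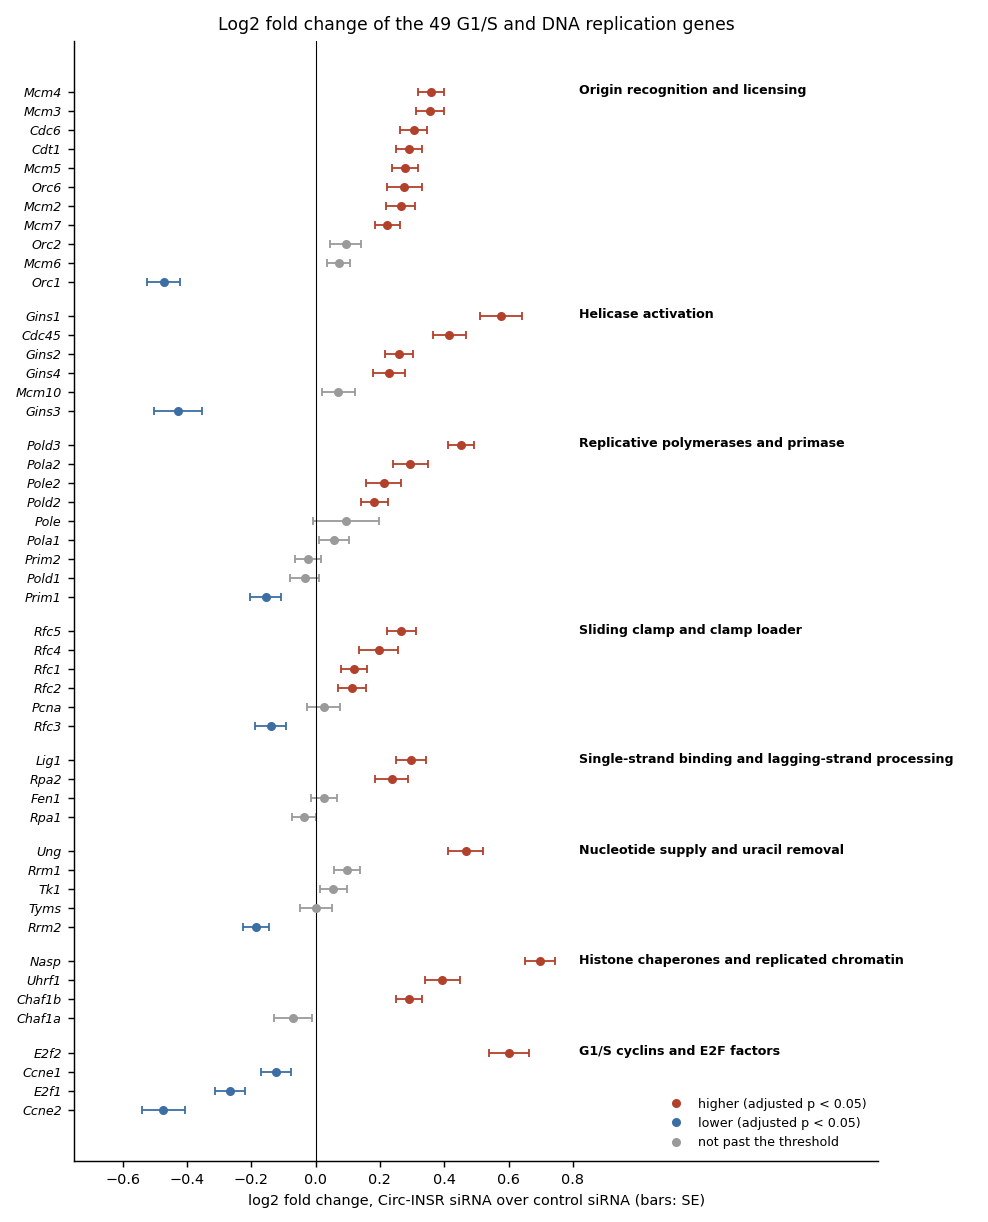
Log2 fold change of Circ-INSR siRNA over control siRNA (horizontal axis, points, with SE bars) for each of the 49 genes (rows), grouped by role and coloured by whether the gene was higher, lower or not past the edgeR adjusted p of 0.05. In 7 of the 8 roles most genes lie right of 0, up to 0.70 for Nasp, while 3 of the 4 genes of the cyclin and E2F role lie left of it, down to -0.47 for Ccne2.

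Of genes that turn the loaded ring into an active helicase 4 of 6 rose (66.7%) and 1 fell (16.7%), against 37.5% and 30.0% of the well-expressed genes. Gins1 (chromosome 2, 150905400 to 150931280, plus strand), a subunit of the GINS complex, had 42.2, 39.3 and 44.3 CPM in Circ-INSR siRNA libraries, against 26.7, 27.1 and 30.6 CPM in control siRNA libraries. Its log2 fold change of 0.58 (SE 0.06; edgeR adjusted p = 1.34e-05) was the third largest rise of the 49. Gins3, another subunit of the same complex (chromosome 8, 95633453 to 95645060, plus strand), had 10.6, 10.7 and 11.8 CPM in Circ-INSR siRNA libraries, against 13.8, 15.8 and 15 CPM in control siRNA libraries. The groups did not overlap, and Gins3 fell by 0.43 (SE 0.07; edgeR adjusted p = 0.000373). The count of Gins1 over that of Gins3 was 3.79 ± 0.16 in Circ-INSR siRNA libraries and 1.89 ± 0.17 in control siRNA libraries (SD, n = 3 each). The other GINS genes, Gins2 and Gins4, rose by 0.26 (SE 0.04) and 0.23 (SE 0.05). The exons of Gins2 share 67.3% of their bases with Gse1 on the other strand, which fell by 0.34, and the strand setting of the counts is not given in the sources used here. Cdc45, the partner of GINS in the active helicase (chromosome 16, 18780447 to 18811987, minus strand), had 64.0, 64.4 and 68.6 CPM in Circ-INSR siRNA libraries, against 50.9, 46.7 and 50.1 CPM in control siRNA libraries. It was higher in all Circ-INSR siRNA libraries, with a log2 fold change of 0.42 (SE 0.05; edgeR adjusted p = 2.30e-05). Mcm10, which helps start the helicase, had a log2 fold change of 0.07 (SE 0.05), and its groups overlapped.

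Of 9 genes of replicative polymerases and primase 4 rose (44.4%) and 1 fell (11.1%), against 37.5% and 30.0% of the well-expressed genes. Pold3, an accessory subunit of polymerase delta (chromosome 7, 100082111 to 100121565, minus strand), had 86.2, 87.3 and 87.7 CPM in Circ-INSR siRNA libraries, against 64.3, 63.7 and 63.1 CPM in control siRNA libraries. The libraries of each group lay close together and far from the other group, and the log2 fold change was 0.45 (SE 0.04; edgeR adjusted p = 2.09e-06). The accessory subunit genes Pola2, Pole2 and Pold2 rose by 0.29, 0.21 and 0.18 (SE 0.05, 0.05 and 0.04). Once a trend by length and GC content was taken out, Pold2 rose by 0.33. The genes of the catalytic subunits Pola1, Pole and Pold1 had log2 fold changes of 0.06, 0.09 and -0.03 (SE 0.05, 0.10 and 0.04), with overlapping groups. Pole, with 11160 exonic bases the longest of the 49, had 106.7 CPM in control siRNA replicate 3 against 143.7 and 138.1 CPM in the other controls. It passed the threshold (edgeR adjusted p = 0.0375) only with the replicate block and the trend removed together. Prim1, the catalytic primase subunit, fell by 0.16 (SE 0.05; edgeR adjusted p = 0.0155), a call lost without Circ-INSR siRNA replicate 1 (edgeR adjusted p = 0.0886) and without control siRNA replicate 2, and its partner Prim2 had a log2 fold change of -0.02 (SE 0.04). The count of Pold3 over that of Pold1 was 0.70 ± 0.01 in Circ-INSR siRNA libraries and 0.50 ± 0.01 in control siRNA libraries (SD, n = 3 each).

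Of the clamp and its loader, Pcna, which encodes the ring that tethers polymerases to DNA, had 254.3, 257.8 and 263.9 CPM in Circ-INSR siRNA libraries, against 237.8, 252.2 and 272.7 CPM in control siRNA libraries. The groups overlapped, and the log2 fold change was 0.03 (SE 0.05; edgeR adjusted p = 0.699). Processed pseudogenes of Pcna are annotated on chromosomes X and 19 and may share reads with it. The same holds for a processed pseudogene of Tyms on chromosome 10. Rfc5, a small subunit of the clamp loader (chromosome 5, 117378103 to 117389047, minus strand), had 93.8, 90.1 and 95.5 CPM in Circ-INSR siRNA libraries, against 76.5, 75.5 and 80.3 CPM in control siRNA libraries. It was higher in all Circ-INSR siRNA libraries, with a log2 fold change of 0.27 (SE 0.05; edgeR adjusted p = 0.000352). The loader genes Rfc4, Rfc1 and Rfc2 rose by 0.20, 0.12 and 0.11 (SE 0.06, 0.04 and 0.04), and Rfc3 fell by 0.14 (SE 0.05). These 4 calls were near the threshold, with edgeR adjusted p between 0.0163 and 0.0419, and each was lost under some other setting. The exons of Rfc2, Rfc4 and Rfc5 share 15.1%, 12.7% and 10.7% of their bases with Lat2, Eif4a2 and Wsb2 on the other strand.

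Of single-strand binding and lagging-strand genes 2 of 4 rose (50%) and 0 fell, against 37.5% and 30.0% of the well-expressed genes. Lig1, the ligase that joins Okazaki fragments (chromosome 7, 13277283 to 13311433, plus strand), had 175.0, 169.9 and 174.5 CPM in Circ-INSR siRNA libraries, against 148.3, 138.1 and 136.5 CPM in control siRNA libraries. The groups did not overlap, and the log2 fold change was 0.30 (SE 0.05; edgeR adjusted p = 0.000166). Rpa2, a subunit of the single-strand binding protein RPA, rose by 0.24 (SE 0.05), and the gene of its large subunit, Rpa1, had a log2 fold change of -0.04 (SE 0.04). Fen1, the flap nuclease, had a log2 fold change of 0.03 (SE 0.04; edgeR adjusted p = 0.613). With the trend on length and GC content removed it was 0.16 and passed the threshold (edgeR adjusted p = 0.000628). An antisense gene, Gm10143, covers 78.8% of its exonic bases and had between 27 and 44 counts in any library, against 96.1 ± 1.97 CPM of Fen1 in Circ-INSR siRNA and 94.4 ± 0.87 CPM in control siRNA libraries (SD, n = 3 each).

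Of nucleotide supply and uracil removal genes 1 of 5 rose (20%) and 1 fell (20%), against 37.5% and 30.0% of the well-expressed genes. Rrm1 and Rrm2 encode the subunits of ribonucleotide reductase, which makes deoxyribonucleotides. Rrm2, the subunit whose level follows S phase, fell by 0.19 (SE 0.04; edgeR adjusted p = 0.00207), with 335.2, 329.5 and 336.1 CPM in Circ-INSR siRNA libraries, against 369.4, 375.6 and 393.6 CPM in control siRNA libraries. Per exonic length it had the highest level of the 49 genes in control siRNA libraries, 484.4 ± 8.98 TPM (SD, n = 3). Rrm1 had a log2 fold change of 0.10 (SE 0.04; edgeR adjusted p = 0.0549), and Tk1 and Tyms, which supply thymidine nucleotides, had 0.05 (SE 0.04) and 0.00 (SE 0.05). Rrm1 passed the threshold in 3 of 18 other settings, at an edgeR adjusted p of 0.00347 without control siRNA replicate 3, and Tk1 in 2, with 0.12 once the trend on length and GC content was removed (edgeR adjusted p = 0.00538 with the replicate block as well). Ung, the glycosylase that removes uracil from DNA (chromosome 5, 114130386 to 114139323, plus strand), had 55.4, 56.6 and 60.7 CPM in Circ-INSR siRNA libraries, against 41.9, 39.5 and 43.5 CPM in control siRNA libraries. It was higher in all Circ-INSR siRNA libraries, with a log2 fold change of 0.47 (SE 0.05; edgeR adjusted p = 1.51e-05).

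Of genes that rebuild chromatin behind the fork 3 of 4 rose (75%) and 0 fell, against 37.5% and 30.0% of the well-expressed genes. Nasp, a chaperone that binds soluble histones (chromosome 4, 116601052 to 116627941, minus strand), had 291.5, 285.9 and 290.8 CPM in Circ-INSR siRNA libraries, against 169.7, 176.6 and 188.6 CPM in control siRNA libraries. Every Circ-INSR siRNA library was far above every control, and the fold change was 1.62 (log2 0.70, SE 0.05; edgeR adjusted p = 2.00e-07). Uhrf1, which brings DNA methylation to newly copied DNA (chromosome 17, 56303321 to 56323486, plus strand), had 308.1, 311.4 and 312.3 CPM in Circ-INSR siRNA libraries, against 254.8, 237.1 and 217.6 CPM in control siRNA libraries. Controls varied more than Circ-INSR siRNA libraries but stayed below them, and the log2 fold change was 0.39 (SE 0.05; edgeR adjusted p = 7.09e-05). Chaf1b, a subunit of chromatin assembly factor 1, rose by 0.29 (SE 0.04), and the gene of its large subunit, Chaf1a, had a log2 fold change of -0.07 (SE 0.06). Control siRNA replicate 3 had 117.4 CPM of Chaf1a against 138.8 and 133.2 CPM in the other controls. Without it, Chaf1a had a log2 fold change of -0.13 and an edgeR adjusted p of 0.00760. The exons of Chaf1a share 52.5% of their bases with Ubxn6 on the other strand. A processed pseudogene of Nasp is annotated on chromosome 6 and may share reads with Nasp.

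**Figure D4:**
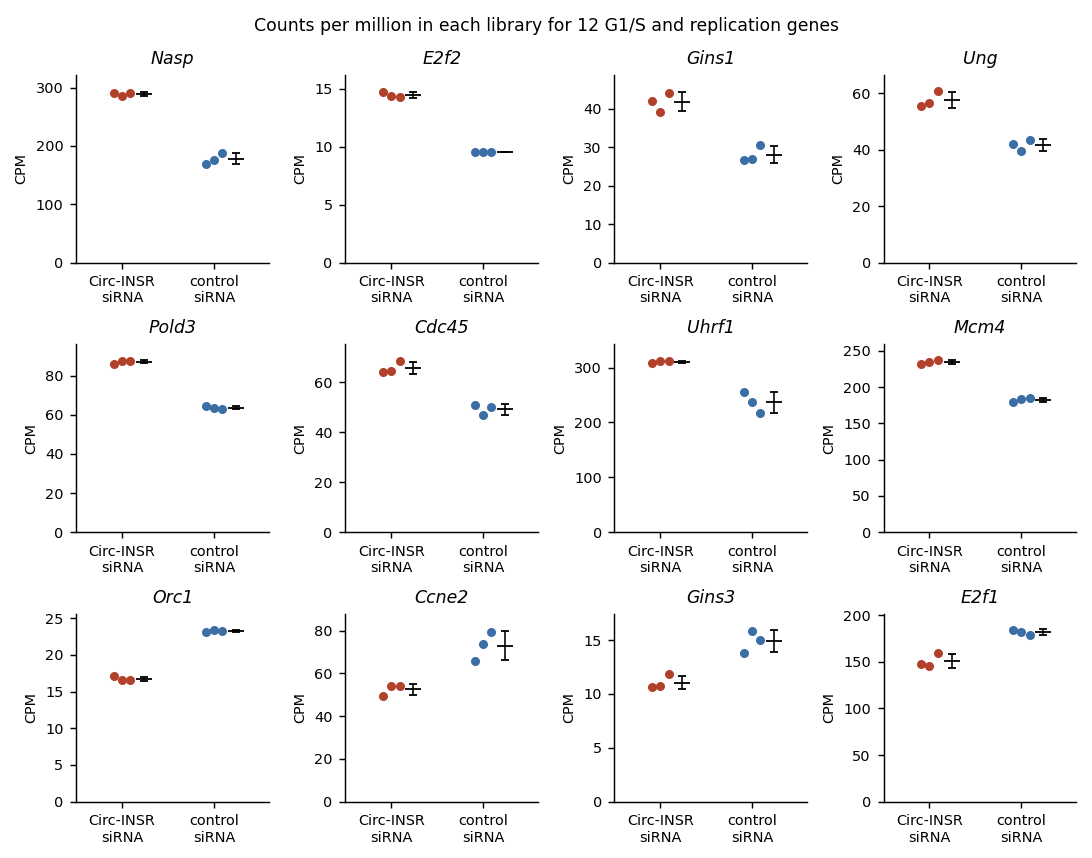
TMM-scaled CPM (vertical axes, starting at 0) in each of the 3 Circ-INSR siRNA and 3 control siRNA libraries (points) for 12 of the genes, with the mean and SD beside each group. The genes were picked for their large changes, which favours non-overlap, and the groups do not overlap in any of the 12 panels. Of all genes tested, 63.3% did not overlap between the groups. The first 8 genes are higher and Orc1, Ccne2, Gins3 and E2f1 lower in Circ-INSR siRNA libraries.

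Of the 4 genes that control entry into S phase, 3 fell (75%) and 1 rose (25%), against 30.0% and 37.5% of the well-expressed genes. Ccne2, which encodes cyclin E2, a partner of Cdk2 (chromosome 4, 11191351 to 11204779, plus strand), had 49.6, 53.9 and 54.2 CPM in Circ-INSR siRNA libraries, against 65.7, 73.8 and 79.5 CPM in control siRNA libraries. The groups did not overlap, with a log2 fold change of -0.47 (SE 0.07; edgeR adjusted p = 8.25e-05). The exons of Ccne2 share 17.4% of their bases with Ints8 on the other strand. Ccne1, which encodes cyclin E1, fell by 0.12 (SE 0.05; edgeR adjusted p = 0.0371), a call that was lost under 8 of 18 other settings, at adjusted p up to 0.903 with the trend on length and GC content removed. E2f1, an activating E2F factor, had 147.9, 145.3 and 159.6 CPM in Circ-INSR siRNA libraries, against 184.4, 182.0 and 178.2 CPM in control siRNA libraries. It was lower in all Circ-INSR siRNA libraries and fell by 0.27 (SE 0.05; edgeR adjusted p = 0.000442). With the trend on length and GC content removed the log2 fold change of E2f1 was -0.12 (edgeR adjusted p = 0.0133). E2f2, a close relative of E2f1 (chromosome 4, 136172394 to 136196057, plus strand), had 14.8, 14.4 and 14.3 CPM in Circ-INSR siRNA libraries, against 9.57, 9.53 and 9.52 CPM in control siRNA libraries. It was higher in all Circ-INSR siRNA libraries, with a log2 fold change of 0.60 (SE 0.06; edgeR adjusted p = 5.78e-06). Per exonic length E2f2 remained the lower of the pair, with 10.2 ± 0.19 TPM in Circ-INSR siRNA and 6.91 ± 0.12 TPM in control siRNA libraries, against 164.9 ± 7.04 and 203.7 ± 6.46 TPM of E2f1 in the same groups (SD, n = 3 each). The count of E2f2 over that of E2f1 was 0.096 ± 0.0056 in Circ-INSR siRNA libraries and 0.053 ± 0.00079 in control siRNA libraries.

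Beyond the 49, 82 further genes of G1/S control and replication were listed, of which 81 could be tested. Of these 41 rose (50.62%) and 10 fell (12.35%), with a median log2 fold change of 0.13. Among all genes tested 28.5% rose and 28.5% fell. The share called in either direction was 62.96%, against 57.0% of all genes tested and 67.5% of the well-expressed genes described above. Of those well-expressed genes 37.5% rose and 30.0% fell. Not all of the 81 reached that level of expression, E2f5 being below it. Of the genes that control the G1/S step 14 of 32 rose (43.75%) and 7 fell (21.88%), with a median of 0.10. Skp2, the ubiquitin ligase subunit that marks the Cdk inhibitor p27 for destruction, had 126.1, 122.8 and 127.1 CPM in Circ-INSR siRNA libraries, against 57.5, 54.9 and 58.2 CPM in control siRNA libraries (log2 fold change 1.14, SE 0.04; edgeR adjusted p = 4.06e-09). Cdkn1a, which encodes the Cdk inhibitor p21 and is a target of p53, had 366.2, 332.1 and 333.5 CPM in Circ-INSR siRNA libraries, against 787.4, 758.4 and 783.6 CPM in control siRNA libraries (-1.17, SE 0.05; edgeR adjusted p = 4.95e-09). Ccnd3, which encodes cyclin D3, rose by 0.83 (SE 0.04). The groups did not overlap for any of these 3 genes, but they were taken by smallest adjusted p, which favours this. Others of this list were chosen after their values were seen. Ccnd1, Cdkn1c, Rb1 and Rbl1 fell by 1.02, 0.76, 0.62 and 0.42, and Cdk6, Cdk4 and Mybl2 rose by 0.93, 0.77 and 0.66. Cdkn1b, which encodes p27, rose by 0.49 (SE 0.05).

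Of 15 other licensing and firing factors 7 rose (46.7%) and 1 fell (6.67%), against 28.5% and 28.5% of all genes tested. Of the well-expressed genes 37.5% rose and 30.0% fell. The share called in either direction was 53.3%, near the 57.0% of all genes tested and below the 67.5% of the well-expressed genes. Dbf4, the activator of the kinase that fires origins, rose by 0.57 (SE 0.05), whereas Cdc7, that kinase itself, fell by 0.16 (SE 0.05). Mtbp and Mcmbp rose by 0.44 and 0.40. Of 19 other fork, clamp and lagging-strand factors 8 rose (42.1%) and 2 fell (10.5%), and 52.6% were called in either direction. Pclaf, a partner of the sliding clamp, rose by 0.70 (SE 0.06) and Rpa3, the small subunit of RPA, by 0.43 (SE 0.07). Pold4, the smallest subunit of polymerase delta, fell by 0.98 (SE 0.07), to 14.2, 12.2 and 12.1 CPM in Circ-INSR siRNA libraries, against 25.7, 24.1 and 25.9 CPM in control siRNA libraries. Pole3, an accessory subunit of polymerase epsilon named after its value was seen, fell by 0.14 (SE 0.04; edgeR adjusted p = 0.0190). The genes of the 4 subunits of polymerase delta had log2 fold changes between -0.98 for Pold4 and 0.45 for Pold3. Of 15 other genes of nucleotide supply and S-phase chromatin 12 rose (80.0%) and 0 fell, with a median of 0.30. Samhd1, which degrades deoxyribonucleotides, had 400.4, 401.1 and 397.1 CPM in Circ-INSR siRNA libraries, against 207.9, 216.8 and 207.4 CPM in control siRNA libraries (log2 fold change 0.92, SE 0.04; edgeR adjusted p = 8.30e-09). Shmt1 and Usp1 rose by 0.48 and 0.35.

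**Figure D5:**
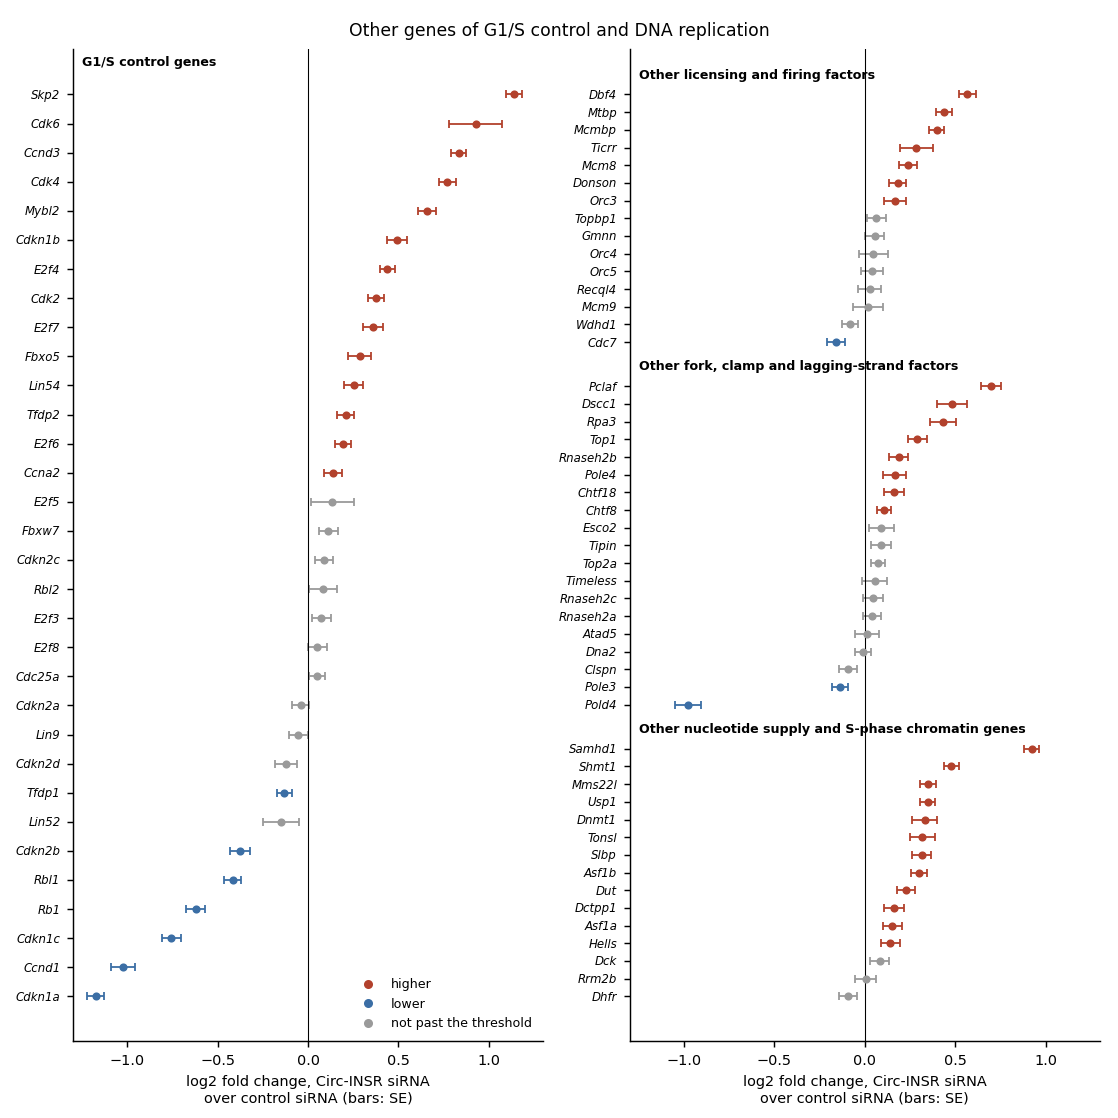
Log2 fold change of Circ-INSR siRNA over control siRNA (horizontal axes, points, with SE bars) for 81 other genes of G1/S control (left) and replication (right), coloured by whether the gene was higher, lower or not past the edgeR adjusted p of 0.05. Skp2 at 1.14 and Cdkn1a at -1.17 mark the ends of the range.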

How the data were processed

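Poly(A)-selected, directional RNA-seq libraries were compared, 3 for each group. The authors deposited 1 table of raw counts per Ensembl gene for each library. Per the submitters' processing notes, their tools and build include mm10, STAR 2.5.0c and featureCounts 1.6.4; annotation release and strand setting: not given in the sources used here. In every library more genes had a count of 2 than of 1, so counts may exceed the number of independent fragments, and halved counts were an alternative.

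Symbols and exonic lengths came from GENCODE M21 (95.33% of IDs matched). Low genes were filtered by edgeR's filterByExpr at a count of 10 and a total of 15, and edgeR 4.0.16 in R 4.3.3 was run with TMM scaling and the robust quasi-likelihood F-test on the group alone. The SE was derived from each log2 fold change and its F statistic, as their absolute ratio after taking the root of F. The steps were run on simulated data in which far fewer genes changed than were called here. Scaling under changes this broad was therefore not tested. A count of 3 corresponded to 0.0395 to 0.0496 CPM. The 49 genes, the further lists and the marker lists were chosen with earlier results of these data known. Values are given in full for genes past the threshold with a log2 fold change of 0.3 or more in size and for the smallest adjusted p of each role; of the further genes, up to 3 per list are named by adjusted p, and other names were chosen after their values were seen. Promoter sequences are from RefSeq (build GRCm38). Alternatives were other scalings and filters, DESeq2 1.42.0, limma-voom 3.58.1, the replicate number as a block, halved or thinned counts, a spline trend on length and GC content removed, and each library left out.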

Additional observations from a re-analysis of the deposited data

How the results depend on the processing

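Across 18 other settings the number of the 49 genes that were higher lay between 24 and 31 and the number lower between 5 and 9, the lowest without Circ-INSR siRNA replicate 1. Of all genes 4130 to 5734 were higher and 4148 to 5326 lower in these settings. With libraries left out in turn, 24 to 30 of the 49 were higher and 5 to 9 lower, and their median log2 fold change was 0.16 to 0.19. That median was 0.16 with upper quartile scaling and 0.14 with total counts alone, which shifted the median of all genes by -0.0448. Other genes of the 49 that passed the threshold kept their call in all 18 settings, except Ccne1 (lost in 8), Rfc2 (9), Rfc1 (5), Rfc4 (4), Rfc3 (3) and Prim1 (2). Calls were gained for Rrm1 (3 settings), Mcm6, Fen1 and Tk1 (2 each) and Orc2, Pole and Chaf1a (1 each). The cause was not tested.

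Reversals of sign occurred only for genes that did not pass the threshold. Tyms had log2 fold changes of -0.0184 (upper quartile), -0.0437 (total counts), -0.0104 (1 CPM filter), -0.0014 (halved), -0.0112 (thinned) and -0.0297 (length and GC trend removed). With total counts Pcna had -0.0203 and Fen1 -0.0189. With the length and GC trend removed Pola1 had -0.0171 and Pold1 0.0592. With libraries left out, Tyms ranged from -0.0282 to 0.0388, Pcna from -0.0204 to 0.0834 and Pole from -0.0237 to 0.1759.

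Libraries of the groups share replicate numbers, but same-numbered libraries correlated by only 0.024, 0.074 and 0.036 in their deviations from the group means, although every library correlated best with its own number, a hint from the data and not the design. With the replicate block 28 of the 49 genes were higher and 8 lower, and 4968 and 4900 of all genes. With the block and the length and GC trend removed together, 31 and 7 of the 49 were higher and lower, and 5734 and 4778 of all genes. That setting shifted the median of all genes by 0.0410. In it Pola1 had -0.0172, Pold1 0.0586 and Tyms -0.0292.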
